A study of Mus musculus with 4 samples.

Results

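Pdx1, Nkx6-1, Nkx2-2, Isl1 and Pax6 encode homeodomain transcription factors that beta cells of the pancreas use. The sites of 3 other factors, Insm1, Neurod1 and Foxa2, were examined around these 5 genes. A site was taken as a member when its summit lay in a fixed window around 1 of the genes, in mm9 coordinates. The windows are chr5:147980000-148190000 for Pdx1, chr5:101980000-102190000 for Nkx6-1, chr2:146900000-147110000 for Nkx2-2, chr13:116990000-117200000 for Isl1 and chr2:105400000-105640000 for Pax6. They held 102 of the 60439 sites in the series, of which 22 of 17453 were Insm1 sites, 31 of 14607 Neurod1 sites and 49 of 28379 Foxa2 sites. The windows are defined by position and not by site values. That they hold the named genes was not checked, since no mm9 annotation was used here.

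The sites come from chromatin immunoprecipitation with sequencing (ChIP-seq) in a mouse line of pancreatic beta cells, with an antibody to Insm1, Neurod1 or Foxa2. Each antibody is a group of 1 sample with 1 list of sites, and an IgG sample served the study as control. No list of IgG sites was used here. All samples share the same cells, which were established from islets of RIP1-Tag2 transgenic mice aged 6 weeks on a mixed C57BL/6, 129/ola and CBA/J background. In that transgene an insulin promoter drives a viral oncogene, so the line stands for dividing, transformed beta cells and not for adult islets. Cells were used at passages 10 to 15 in medium with 25 mmol/l glucose.

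A homeodomain is a DNA-binding fold that reads short sequences, often with a TAAT core. Pdx1 is needed for the pancreas to form and later drives the insulin gene. Nkx6-1 keeps beta cells from taking on features of alpha cells, Nkx2-2 directs islet precursors toward the beta cell fate, Isl1 is a LIM-homeodomain factor of all islet endocrine cells, and Pax6 carries a paired domain beside its homeodomain and activates islet hormone genes. Among the factors whose sites were mapped, Insm1 has zinc fingers and is made in endocrine cells and in developing neurons. E-boxes are the targets of Neurod1, of the basic helix-loop-helix class, while Foxa2 belongs to the forkhead class and can bind in closed chromatin.

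The site lists give positions on mm9, for which no genome was used here, so the letters under a site are not shown. The bases before the transcription starts are shown instead, because these are the parts of the loci that the 3 factors could meet next to the gene. They are 250 bases of RefSeq sequence on the GRCm38.p6 build, 5′ to 3′ along the gene and ending at the base before the start. Capitals mark E-boxes, spelled CANNTG, and forkhead motifs, on either strand. A forkhead motif was spelled TGTTTAC, with A allowed in place of the G at the second base and G in place of the A at the sixth. Whether a site of the lists lies on these bases was not determined, as the builds differ. The Pdx1 bases lie at chr5:147269847-147270096 on the plus strand, those of Nkx2-2 at chr2:147186403-147186652 on the minus strand and those of Isl1 at chr13:116309689-116309938 on the minus strand.
Pdx1: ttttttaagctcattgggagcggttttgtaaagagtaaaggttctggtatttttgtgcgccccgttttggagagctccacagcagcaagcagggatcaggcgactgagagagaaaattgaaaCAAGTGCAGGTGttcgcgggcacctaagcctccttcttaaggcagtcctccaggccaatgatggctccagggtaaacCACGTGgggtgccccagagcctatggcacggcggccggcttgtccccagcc
Nkx2-2: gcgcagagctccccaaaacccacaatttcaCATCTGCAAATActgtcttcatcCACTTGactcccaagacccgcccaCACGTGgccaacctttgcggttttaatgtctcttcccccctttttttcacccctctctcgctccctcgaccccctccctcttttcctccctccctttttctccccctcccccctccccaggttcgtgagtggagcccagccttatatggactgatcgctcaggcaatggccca
Isl1: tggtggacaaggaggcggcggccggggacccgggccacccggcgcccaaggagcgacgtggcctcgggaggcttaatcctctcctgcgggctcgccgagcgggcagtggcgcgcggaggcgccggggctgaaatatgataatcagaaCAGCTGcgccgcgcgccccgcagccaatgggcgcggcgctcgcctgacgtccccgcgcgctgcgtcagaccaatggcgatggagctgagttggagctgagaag

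E-boxes were found in 4 of the 6 promoters of the 5 genes, since Pax6 has 2 starts in the table, and in 66.2% of 32851 promoters of the same length. Pdx1 and Nkx2-2 each held 3 of them, a number reached by 12.2% of all promoters. In Pdx1 the E-boxes CAAGTG and CAGGTG touch each other, at 128 and 122 bases before the start, and CACGTG lies at 51 bases. Nkx2-2 also held the only forkhead motif of the set, GCAAATA on the strand shown, which overlaps the E-box CATCTG by 1 base; 11.9% of all promoters held a forkhead motif. The letters TGNNNGGGG, a core that Insm1 sites can carry, were in none of the 6 promoters and in 23.2% of all promoters. TAAT was in 4 of the 6 and in 54.9% of all. These shares describe letters in short stretches of DNA and not binding.

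In the windows, sites of all 3 factors were denser than over the lists as a whole. Insm1 had 20.4 sites per Mb in the windows and 6.79 per Mb over the lists, a ratio of 3.0. Neurod1 had 28.7 sites per Mb in the windows and 5.68 over the lists, a ratio of 5.05. Foxa2 had 45.4 sites per Mb in the windows and 11.03 over the lists, a ratio of 4.11. The windows cover 1.08 Mb, and the lists were counted over the 2572.0 Mb between the first and last site of each chromosome. Windows of double length held 30 Insm1, 38 Neurod1 and 67 Foxa2 sites, so the densities and ratios were lower in wider windows. Since each factor is 1 list with no replicate, no test across samples exists. The intervals below are exact (Clopper-Pearson) 95% binomial intervals, cover counting error only and take each site as independent, although sites close to each other may not be so. Read depth is unknown for every site.

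Overlapping sites were merged into regions, in which sites sharing at least 1 bp count as 1 region, and the windows held 65 of the 39412 regions. Nkx6-1 had 20 regions, Pax6 16, Isl1 11, Pdx1 10 and Nkx2-2 8. Cut into tiles of 210 kb, the genome gave a median of 2 regions and a mean of 3.22 in 12258 tiles. At least 20 regions, as around Nkx6-1, were found in 7 tiles, or 0.0571%. The counts of the other windows were reached more often, by 3.57% of tiles for Isl1, 5.22% for Pdx1 and 10.8% for Nkx2-2, and by 0.708% of 10728 tiles of 240 kb for Pax6. Tiles cover gene-poor stretches as well, whereas each window is set around a gene, and the part of this in the difference was not tested.

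**Figure D1:**
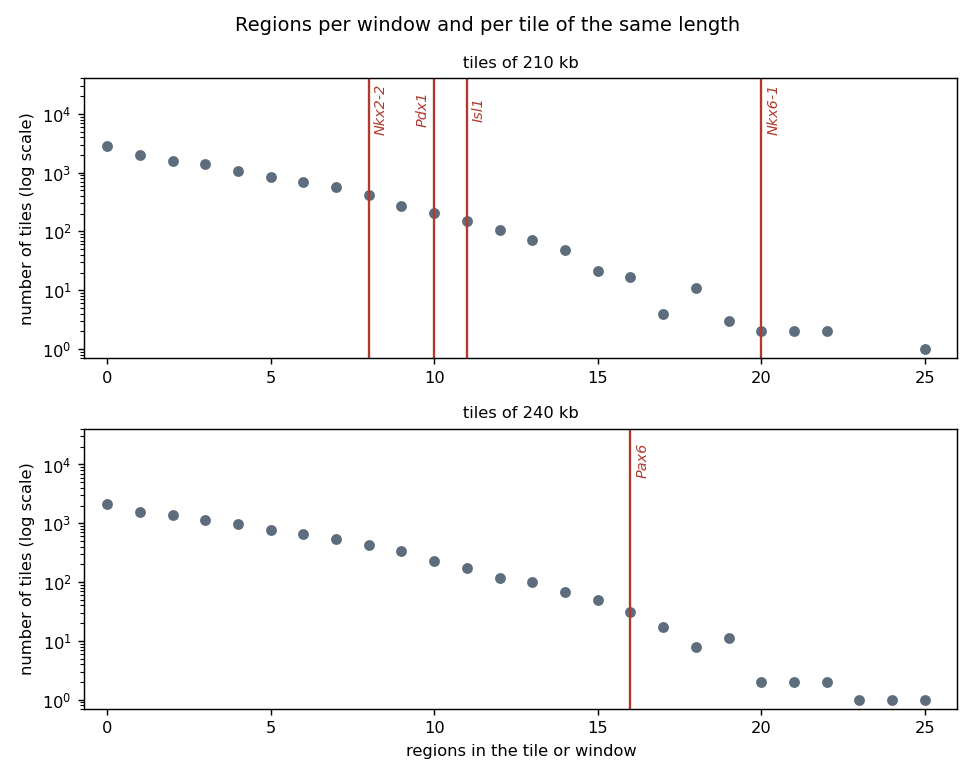
Number of tiles of the genome (log scale) that hold a given number of regions, as points, for tiles of 210 kb (top) and 240 kb (bottom); tiles with a count not seen have no point. Red lines give the windows of the same length, from 8 regions around Nkx2-2 to 20 around Nkx6-1, and 16 around Pax6.

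Regions with all 3 factors numbered 14 of 65 in the windows (21.5%, interval 12.3 to 33.5%), beside 6665 of 39412 (16.9%) over all regions. The share in the windows is thus close to that of all regions. Pax6 and Nkx6-1 had 4 such regions each, Pdx1 3, Isl1 2 and Nkx2-2 1. At least 4 were found in 1.93% of 210 kb tiles and in 2.5% of 240 kb tiles, at least 3 in 4.84%, at least 2 in 12.9% and at least 1 in 33.6%. The single region around Nkx2-2 is therefore a common count for a stretch of this length.

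**Figure D2:**
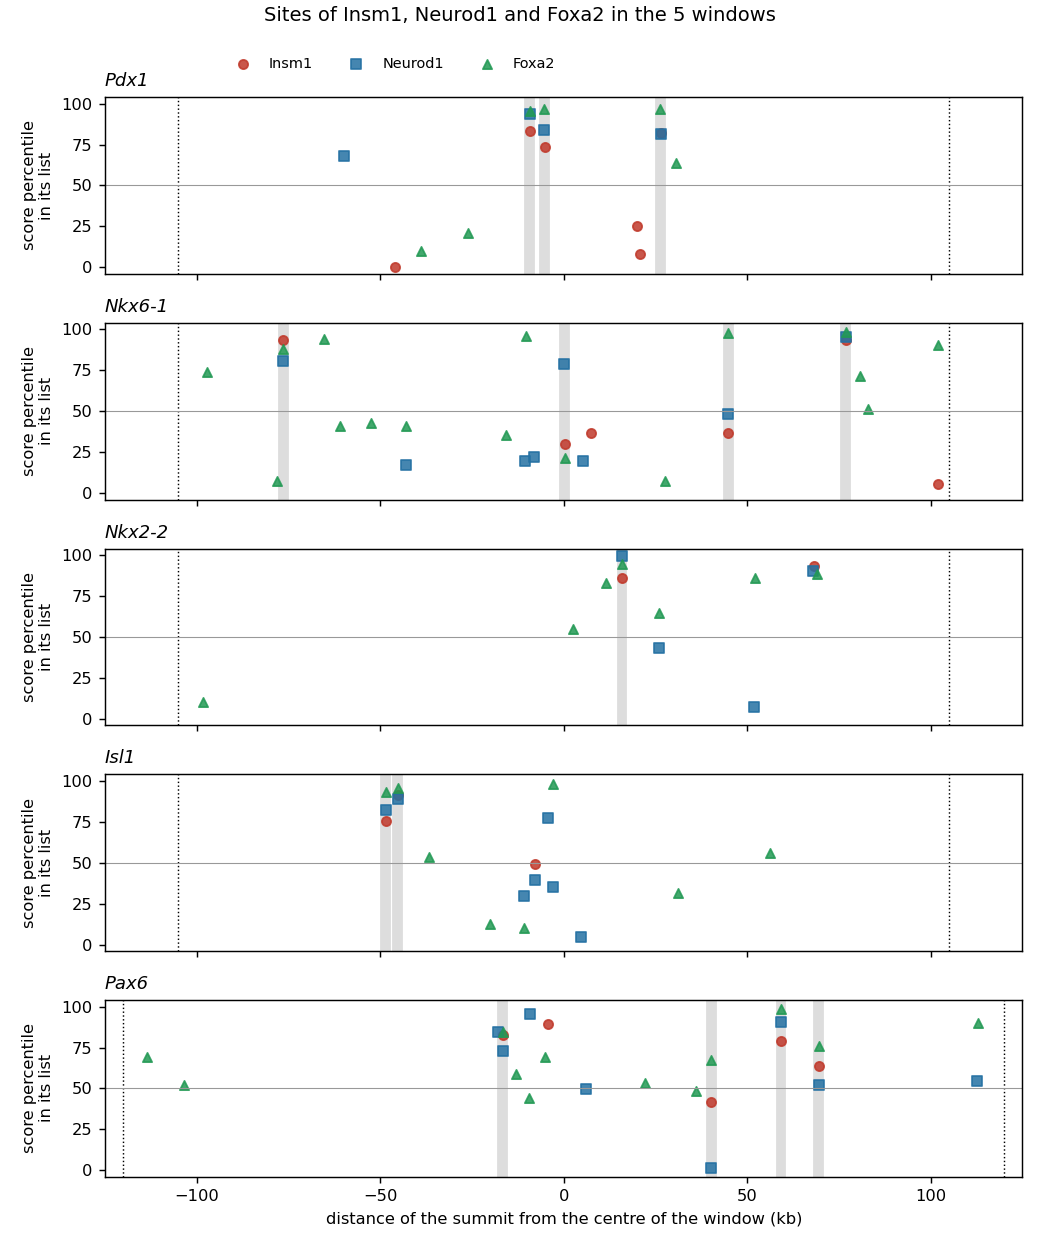
Sites of Insm1 (circles), Neurod1 (squares) and Foxa2 (triangles) in the 5 windows, by distance of the summit from the centre of the window in kb and by score percentile within the list of the factor. Grey bands mark the 14 regions with all 3 factors, dotted lines the ends of the window, and the horizontal line the median of the list. Most sites of Nkx2-2 lie right of the centre, and the Pdx1 and Isl1 windows are empty toward both ends.

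The 3 lists met at these loci in different proportions. Among the 22 Insm1 sites of the windows, 16 overlapped a Neurod1 site (72.7%, interval 49.8 to 89.3%), beside 55.0% of the whole Insm1 list. A Foxa2 site overlapped 15 (68.2%, 45.1 to 86.1%), beside 56.2%. Both partners were present at 14 (63.6%, 40.7 to 82.8%), beside 37.9%, and neither at 5 (22.7%, 7.82 to 45.4%), beside 26.7%. Of these shares only the one with both partners had an interval that left out the value of the whole list.

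Neurod1 sites of the windows were paired with Insm1 in 16 of 31 cases (51.6%, 33.1 to 69.8%), beside 65.7% of the Neurod1 list, and with Foxa2 in 20 (64.5%, 45.4 to 80.8%), beside 55.9%. Both partners were found at 14 (45.2%, 27.3 to 64.0%), beside 44.9%, and neither at 9 (29.0%, 14.2 to 48.0%), beside 23.3%. All 4 intervals hold the value of the whole list. The same 16 overlaps are a larger share of the 22 Insm1 sites than of the 31 Neurod1 sites. For Insm1 the interval, 49.8 to 89.3%, also holds the value of the whole list, 55.0%.

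Foxa2 was the most frequent factor and was often alone. Of its 49 sites in the windows 28 had neither partner (57.1%, 42.2 to 71.2%), beside 59.8% of the Foxa2 list. Insm1 overlapped 15 (30.6%, 18.3 to 45.4%), beside 34.6%, Neurod1 overlapped 20 (40.8%, 27.0 to 55.8%), beside 28.8%, and both overlapped 14 (28.6%, 16.6 to 43.3%), beside 23.2%. These 4 intervals also hold the values of the list.

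**Figure D3:**
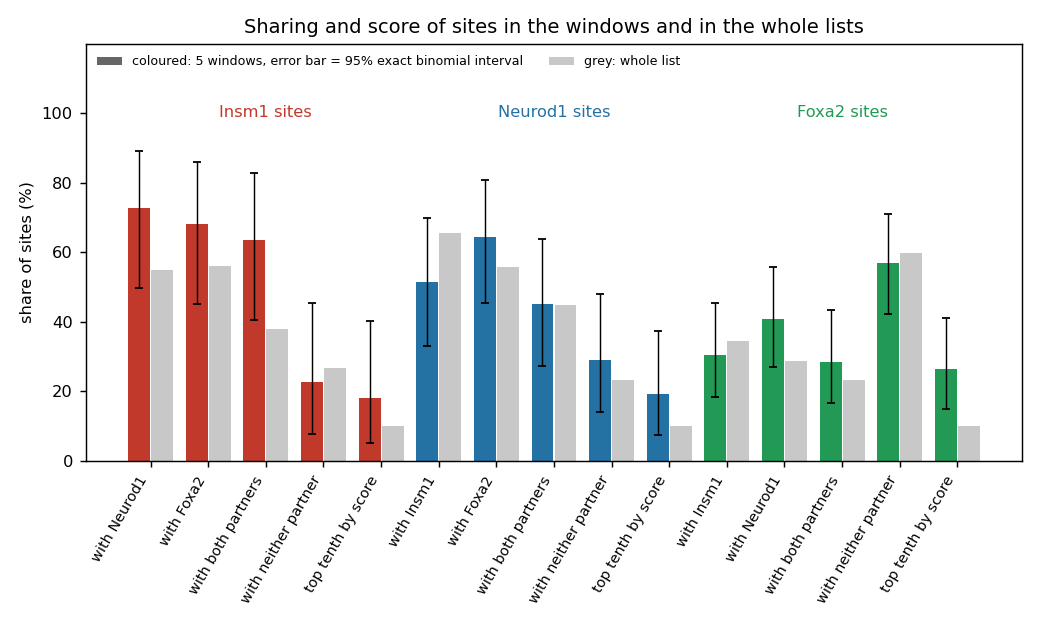
Share of sites, in percent, with each partner, with both or neither, and among the top 10% of scores; coloured bars give the sites in the 5 windows with 95% exact binomial intervals (n = 22 Insm1, 31 Neurod1 and 49 Foxa2 sites), and grey bars the whole list. The clearest gaps are Insm1 sites with both partners (63.6% and 37.9%) and Foxa2 sites in the top 10% (26.5% and 10.0%).

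The authors give each site a whole number, taken here as a score, which no source used here defines. It was therefore used only as a percentile within its own list, where the highest score of a list is near 100 and the median site is at 50. Sites of the windows had a median percentile of 74.7 for Insm1 (interval of the median 36.7 to 86.0), 67.8 for Neurod1 (39.2 to 82.3) and 67.4 for Foxa2 (53.5 to 84.7). Of the 3, only the Foxa2 interval lay above 50, and within the central 50% of each window it did not (median 64.3, 44.2 to 92.9). The top 10% of the list held 13 of the 49 Foxa2 sites (26.5%, 14.9 to 41.1%), beside 10.0% of all Foxa2 sites. It held 6 of 31 Neurod1 sites (19.4%, 7.45 to 37.5%), beside 10.0%, and 4 of 22 Insm1 sites (18.2%, 5.19 to 40.3%), beside 9.95%. Regions with all 3 factors held 9 of the 13 high Foxa2 sites (69.2%), beside 66.7% of the top 10% of the whole Foxa2 list. They held 4 of the 6 for Neurod1 (66.7%), beside 76.2%, and 3 of the 4 for Insm1 (75.0%), beside 75.5%. These shares are close to those of the lists.

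Pdx1 lies between Gsx1 and Cdx2, other homeobox genes, in the order of protein-coding genes on GRCm38.p6. Its window held 6 Insm1, 4 Neurod1 and 6 Foxa2 sites in 10 regions. A region had either all 3 factors or 1 alone, whereas each of the other 4 windows had at least 1 region with a pair of factors. Each kind of pair was thus at 0 of 10 regions (0 to 30.8%). Over all regions these pairs made up 8.03%, 7.5% and 4.0%, values that the interval holds. Pax6 differed by 1 region of 16. The upstream enhancers of Pdx1 are well-known targets of Foxa2, but distances to the gene are not given here because no mm9 annotation was used.

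Among the regions with all 3 factors at Pdx1, 2 lay close to each other, chr5:148075588-148076097 and chr5:148079576-148079822, at -9.3 and -5.3 kb from the centre of the window (a minus sign means toward lower coordinates). At the first, Neurod1 had a score of 210 and ranked 964 in its list, Foxa2 217 with rank 1294 and Insm1 216 with rank 2942. The Insm1 site there, at 501 bp, was the widest Insm1 site of the 5 windows. At the other, Foxa2 had a score of 256 with rank 932, Neurod1 136 with rank 2365 and Insm1 178 with rank 4542. Both regions thus had every factor above the median of its list, and these 6 sites make up 37.5% of the sites in the window.

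The remaining region with all 3 factors at Pdx1, chr5:148111294-148111479 at 26.4 kb, held the best Foxa2 site of the window (score 260, rank 908), with Neurod1 at 128 (rank 2692) and Insm1 at 212 (rank 3075). Outside these 3 regions the Insm1 sites were weak, with scores of 76, 101 and 85. A score of 76 is also the lowest in the whole Insm1 list. Solitary Foxa2 sites had scores of 23, 27 and 56, and the solitary Neurod1 site had a score of 94. The longest stretch without a site between regions ran for 25.0 kb, between 148079822 and 148104868.

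Nkx6-1, which has Gpat3 and the predicted gene Gm42134 as its neighbours in GRCm38.p6, had the most sites of the 5 loci with the lists as deposited, 30 beside 25 at Pax6. The order of the counts turned with sites above the median score of each list (14 at Nkx6-1 and 20 at Pax6). It also turned with lists of equal length (22 and 24) and within the central 50% of each window (15 and 18). These counts were not scaled for length and so do not compare density, since the Pax6 window has 240 kb and that of Nkx6-1 210 kb. The window held 16 Foxa2, 8 Neurod1 and 6 Insm1 sites, and 14 of its 20 regions had 1 factor. Foxa2 was alone at 10 of the 20 (interval 27.2 to 72.8%), beside 43.1% of all regions. Neurod1 was alone at 3 (3.21 to 37.9%), beside 8.65%, and Insm1 at 1 (0.127 to 24.9%), beside 11.8%. Each of these intervals holds the value of all regions. The outermost sites lay 7.9 kb from the left end and 3.1 kb from the right end of the window. The longest empty stretch between regions was 31.8 kb, between 102129936 and 102161728.

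The region chr5:102161728-102161993 at 76.8 kb was the strongest at Nkx6-1 by every factor but Insm1. Foxa2 had a score of 345 there (rank 476), Neurod1 237 (rank 691) and Insm1 311 (rank 1119). All 3 sites were in the top 10% of their lists, which no other region of the 5 windows reached. On the opposite side of the window, chr5:102008500-102008750 at -76.4 kb, Insm1 reached its best rank of the 5 windows (score 314, rank 1090), beside Foxa2 at 126 (rank 3378) and Neurod1 at 125 (rank 2790). These regions lie near opposite ends of the window.

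Near the centre of the Nkx6-1 window, at 0.3 kb, the region chr5:102085186-102085393 held Neurod1 at 118 (rank 3106), Insm1 at 106 (rank 12169) and Foxa2 at 27 (rank 21993). It was the only region with all 3 factors in which Foxa2 had the lowest percentile, at 21.2 against 78.6 for Neurod1. At 44.8 kb, chr5:102129571-102129936 had Foxa2 as the highest factor instead, at 299 (rank 649), Neurod1 at 71 (rank 7455) and Insm1 at 113 (rank 10947). Where factors met in pairs, Foxa2 scored 145 and Insm1 82 at chr5:102186806-102187023, and Foxa2 36 and Neurod1 52 at chr5:102041793-102042103.

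Solitary sites at Nkx6-1 ranged widely. Foxa2 alone reached a score of 232 (rank 1129) at chr5:102074601-102074805 and 188 (rank 1699) at chr5:102019652-102019833, while the other 8 solitary Foxa2 sites scored 22 to 73. The first of these began 50 bp after the end of a weak Neurod1 site (score 53), so that the 2 sites count as separate regions although they are neighbours. The 3 solitary Neurod1 sites scored 53, 54 and 53, and the last was 58 bp wide, the narrowest site of the 5 windows. The solitary Insm1 site had a score of 113.

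Nkx2-2 lies between Nkx2-4, a related homeobox gene, and Pax1. Its window held 13 sites in 8 regions, the fewest with the lists as deposited, with 7 Foxa2, 4 Neurod1 and 2 Insm1 sites. Foxa2 was present at 7 of these regions (87.5%, 47.3 to 99.7%), beside 72.0% of all regions, a value within the interval. With sites above the median score it had 7 regions, beside 5 at Pdx1 and 6 at Isl1. No site was found over 100.6 kb between 146906864 and 147007453, so that 1 of the 8 regions lay left of the centre and 7 right of it. Sites with neither partner were 0 of 2 for Insm1 (0 to 84.2%), beside 26.7% of its list. They were 0 of 4 for Neurod1 (0 to 60.2%), beside 23.3%. Both intervals hold the value of the list, and Isl1 likewise had 0 of 3 Insm1 sites with neither partner.

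The region chr2:147020862-147021041 at 15.9 kb carried all 3 factors and the best Neurod1 site of the 5 windows. Neurod1 had a score of 426 and ranked 114 of 14607, Foxa2 192 (rank 1618) and Insm1 232 (rank 2437). The summits of Neurod1 and Foxa2 lay 1 bp apart, and the Insm1 summit lay 60 bp from that of Neurod1. The only stronger Insm1 site of this window, with a score of 312 (rank 1110), lay at chr2:147072979-147073374 together with Neurod1 at 179 (rank 1377). A Foxa2 site with a score of 129 began 499 bp past that region, which is why it counts as a pair and not as a region with all 3 factors.

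In the other pairs of Nkx2-2, Neurod1 and Foxa2 scored 67 and 57 at chr2:147030885-147031078, and 48 and 116 at chr2:147056815-147057107. Foxa2 alone had scores of 23, 46, 101 and 129. Foxa2 sites of this locus were mostly above the median of their list (6 of 7), though only 1 reached the top 10%.

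Isl1 lies between Pelo and Parp8 and had 18 sites in 11 regions, with 8 Foxa2, 7 Neurod1 and 3 Insm1 sites. Neurod1 was present at 7 of these regions (63.6%, 30.8 to 89.1%), beside 37.1% of all regions, a value that the interval holds. Its regions with all 3 factors were again close to each other. At chr13:117049675-117049931, at -45.2 kb, Foxa2 had a score of 219 (rank 1277), Insm1 280 (rank 1501) and Neurod1 164 (rank 1645). At chr13:117046359-117046636, at -48.5 kb, Foxa2 had 171 (rank 2001), Neurod1 131 (rank 2560) and Insm1 184 (rank 4247). In both the 3 summits lay within 17 bp of each other, the tightest groups of the 14 regions.

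Of stretches of 10 kb in the Isl1 window, the one with the most sites was in the middle, with 7 sites in 4 regions between 117083982 and 117092193. Here the factors met only in pairs or singly. Foxa2 had its best site of the locus there, with a score of 322 (rank 552), at chr13:117092018-117092193 beside Neurod1 at 61 (rank 9387). Insm1 had a score of 128 and Neurod1 64 at chr13:117087201-117087422, and Neurod1 and Foxa2 had scores of 58 and 23 at chr13:117083982-117084360. Neurod1 alone scored 115 and 47, with a width of 88 bp for the site scoring 115, and Foxa2 alone scored 45, 24, 31 and 47. The longest empty stretch between regions was 26.1 kb, between 117100030 and 117126105.

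Pax6 lies between Rcn1 and Elp4, whose introns are known to hold enhancers of Pax6. The window, at 240 kb, held 12 Foxa2, 8 Neurod1 and 5 Insm1 sites in 16 regions. Of the 5 Insm1 sites 4 had both partners (80.0%, 28.4 to 99.5%), beside 37.9% of the Insm1 list. The remaining 1 had none (20.0%, 0.505 to 71.6%), beside 26.7%. Both intervals hold the value of the list. No site was found over 85.7 kb between 105416478 and 105502176.

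The best Foxa2 site of the 5 windows, with a score of 391 and rank 333 of 28379, lay at chr2:105579013-105579328 at 59.2 kb, together with Neurod1 at 181 (rank 1340) and Insm1 at 198 (rank 3622). Insm1 and Neurod1 summits lay 5 bp apart there, and the Foxa2 summit 85 bp from that of Insm1. The next region, chr2:105589396-105589702 at 69.5 kb, had like distances of 7 and 81 bp, with Foxa2 on the opposite side of the other summits, and scores of 78 for Foxa2, 74 for Neurod1 and 153 for Insm1. At chr2:105503307-105503477, at -16.6 kb, Insm1 had a score of 214 (rank 3000), Foxa2 108 (rank 4305) and Neurod1 103 (rank 3955). At chr2:105560069-105560333, at 40.2 kb, Neurod1 had a score of 46, the lowest of its list, beside Insm1 at 119 and Foxa2 at 61.

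Strong sites without a partner were found at Pax6 for Insm1 and Neurod1. A solitary Insm1 site at chr2:105515644-105515828 had a score of 258 (rank 1842), the best Insm1 rank of the locus. Neurod1 alone had a score of 238 (rank 685) at chr2:105510893-105510959 and 140 (rank 2250) at chr2:105502176-105502238, sites 66 and 62 bp wide. Narrow sites of under 100 bp made up 6 of the 31 Neurod1 sites in the windows and 22.2% of the Neurod1 list. None of the 22 Insm1 sites in the windows was this narrow, beside 3.78% of the Insm1 list. The same held for the 49 Foxa2 sites, beside 6.89% of the Foxa2 list. The part of the width in these scores was not tested. Another solitary Neurod1 site had a score of 72, the 7 solitary Foxa2 sites had scores of 38 to 64, and a Neurod1 and Foxa2 pair at chr2:105632587-105632851 had scores of 77 and 138.

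**Figure D4:**
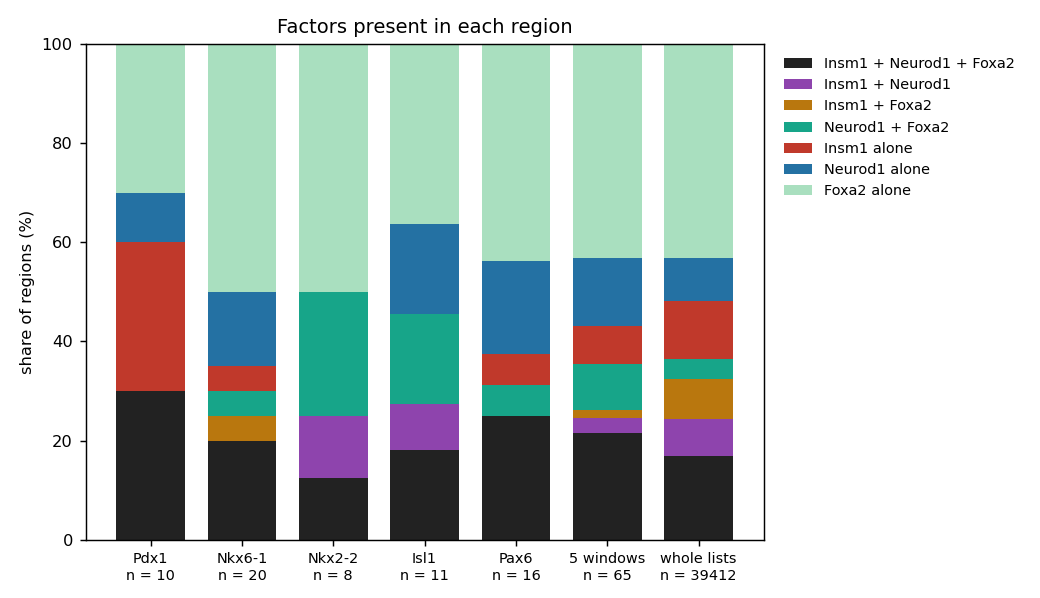
Share of regions, in percent, by the factors present, for each window, the 5 windows together (n = 65 regions) and the whole lists (n = 39412). Foxa2 alone makes up 43.1% both in the windows and over the lists. Pdx1 has regions of 1 or 3 factors only, and each kind of pair makes up 4.0 to 8.03% over the lists.

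Over the 5 windows Insm1 was present at 22 of 65 regions (33.8%, 22.6 to 46.6%), beside 44.3% of all regions. By locus it was found at 60% of regions at Pdx1 (26.2 to 87.8%), 31.2% at Pax6 (11.0 to 58.7%), 30.0% at Nkx6-1 (11.9 to 54.3%), 27.3% at Isl1 (6.02 to 61.0%) and 25.0% at Nkx2-2 (3.19 to 65.1%). All these intervals overlap each other and hold the value of all regions, and each locus rests on 2 to 6 Insm1 sites. Over the 5 windows, pairs of Neurod1 and Foxa2 without Insm1 made up 6 of 65 regions (9.23%, 3.46 to 19.0%), beside 4.0% over all regions. Pairs of Insm1 and Foxa2 without Neurod1 made up 1 (1.54%, 0.0389 to 8.28%), beside 8.03%, and pairs of Insm1 and Neurod1 made up 2 (3.08%, 0.375 to 10.7%), beside 7.5%.

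In the 14 regions with all 3 factors, Foxa2 had the highest percentile in 11 (78.6%, 49.2 to 95.3%), beside 48.5% of the 6665 such regions of the lists. Neurod1 was highest in 2 (14.3%, 1.78 to 42.8%), beside 24.4%, at Nkx2-2 and in the centre of Nkx6-1. Insm1 was highest in 1 (7.14%, 0.181 to 33.9%), beside 27.1%, at the left flank of Nkx6-1. The intervals for Neurod1 and Insm1 hold the values of the lists. Every factor lay above the median of its list in 11 of the 14 (78.6%, 49.2 to 95.3%), beside 44.9%. The exceptions were the regions of Nkx6-1 at 0.3 and 44.8 kb and that of Pax6 at 40.2 kb. Within each list, sites with both partners had median percentiles of 80.7 in the windows and 70.3 over the list for Insm1, 81.9 and 65.3 for Neurod1, and 94.8 and 78.6 for Foxa2. For sites with neither partner the medians were 25.0 and 29.9 for Insm1, 49.5 and 33.3 for Neurod1, and 52.9 and 37.3 for Foxa2. For Neurod1 and Foxa2 the median was thus higher in the windows also at sites with neither partner. These medians rest on 9 Neurod1 and 28 Foxa2 sites and have no interval. Not every class of Neurod1 sites had a higher median. The 6 with Foxa2 alone had 32.4, beside 33.3 over the list, and the 2 with Insm1 alone 64.9, beside 47.2.

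**Figure D5:**
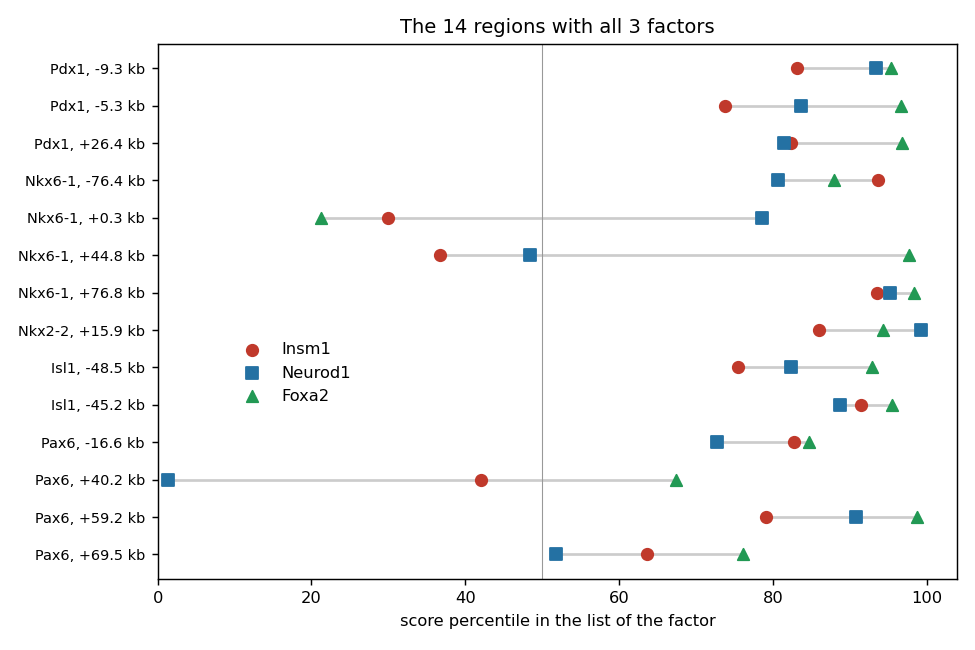
Score percentile of Insm1 (circles), Neurod1 (squares) and Foxa2 (triangles) within their own lists for the 14 regions with all 3 factors, each named by its locus and its distance from the centre of the window in kb. Foxa2 is the highest in 11 of the 14 and falls below the line at 50 in 1, at Nkx6-1.

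Distances between summits were compared for each pair of factors. Over the 20 overlapping pairs of Neurod1 and Foxa2 in the windows the median distance was 24.5 bp, ranging up to 105 bp, beside 41.0 bp over 8166 pairs of the lists. Insm1 and Foxa2 summits lay a median of 50 bp apart over 15 pairs, beside 40 bp, and Insm1 and Neurod1 summits 52.5 bp over 16 pairs, beside 31.0 bp. By these medians Insm1 and Neurod1 were the closest pair over the lists. In the windows their median was near that of Insm1 and Foxa2, over a different set of pairs. Within the 14 regions with all 3 factors the same regions enter each median. There the distance was 20.5 bp for Neurod1 with Foxa2, beside 41.0 bp over the 6665 such regions of the lists. It was 50.5 bp for Insm1 with Foxa2, beside 39.0 bp, and 36.5 bp for Insm1 with Neurod1, beside 30.0 bp. Neurod1 and Foxa2 were the closest pair in 6 of the 14 (42.9%, 17.7 to 71.1%), beside 27.6%, and this interval holds the value of the lists. Insm1 and Neurod1 were the closest pair equally often, in 6 of the 14 (42.9%), beside 41.7%.

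At the ends of the windows, the nearest site inside an end was between 3.1 and 74.5 kb from it, and the nearest outside between 1.4 and 85.6 kb. Just outside the Pax6 window lay a strong Insm1 site (score 226) at 7.5 kb from the left end and a weak Foxa2 site (score 39) at 1.4 kb from the right end, while the nearest sites inside were Foxa2 sites with scores of 64 and 138.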

How the data were processed

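The tools named, per the submitters' processing notes, are MACS 1.4, Bowtie 0.12.7 and CASAVA, and the build is mm9. No source used here gives their settings, the threshold, the control or any pooling. The authors deposited 1 list of sites for each of Insm1, Neurod1 and Foxa2, without header, with chromosome, start, end, an inner position read as the summit, and a whole number read as the site score. The deposited score has no stated definition and was used only as a rank or percentile (mid-rank for ties) within its list. Coordinates are given as deposited. The design text counts 6 samples with repeats for Insm1 and Foxa2; 4 samples, of 1 per group, were given here.

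Sites were assigned to windows by summit, called shared from 1 bp of overlap, and merged into regions. Tiles start at the first region of each chromosome. Shares carry exact binomial intervals and medians a binomial order-statistic interval. No test was made, because there are no replicates. The counting was tested on simulated data. Named were, by rule, the best site of each factor in a window, its regions with all 3 factors and its longest empty stretch; other sites were described after their values were seen, to account for every member. Members and lists were chosen with earlier results of these data known. Promoters and gene order come from RefSeq on GRCm38.p6, in which all 5 genes matched. Counts and intervals were computed with scipy 1.17.1, pandas 2.3.3 and numpy 2.4.6 under Python 3.11.15, and figures were drawn with matplotlib 3.10.9.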

Additional observations from a re-analysis of the deposited data

How the results depend on the processing

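Of 72 values of 12 results over the 5 windows under other settings, 67 stayed within 1.5 times the count or within the interval of the share or median. Limiting each list to sites above its median score gave 41 regions, 13 Insm1 sites and 18 Neurod1 sites, fewer by construction, and 92.3% of Insm1 sites with Neurod1, beside 51.5% of the whole list under that setting. Counts in windows of other length were not scaled, so for those settings the limit of 1.5 times does not compare density. The central part of each window, 50% of its length, held 46 regions, beside 65, and 32 Foxa2 sites, beside 49. Both are higher densities than in the full windows. Windows of double length held 93 regions, a lower density. Regions with all 3 factors numbered 11 to 15 across the settings. The share of Insm1 sites with Foxa2 ranged from 53.3% in windows of double length to 84.6% (54.6 to 98.1%) with sites above the median score, beside 53.9% of the whole list with those sites. The median Neurod1 percentile was 49.5 in the central part, and the interval of the Foxa2 median, 44.2 to 92.9, then held 50. Nkx6-1 had 10 regions and Pax6 13 with sites above the median score, 15 each with lists of equal length, and 10 and 12 in the central part. These counts were not scaled for the greater length of the Pax6 window. Nkx2-2 had 7 regions and Pdx1 6 with lists of equal length. Of 160 values for single windows or tiles, 135 stayed within these limits. Widening sites by 500 bp on both sides gave 2 regions with all 3 factors around Nkx2-2 in place of 1. Tiles shifted by 50% of their length, a setting chosen after seeing the data, gave 0.0326% of tiles with at least 20 regions. No paired analysis was possible because each group has 1 sample, and for the same reason no replicate could be left out. No read depth is known for any list, and shares of 2 to 22 sites have wide intervals.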
